A study of Mus musculus with 2 samples.

Results

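Trp63, Klf4, Grhl1, Grhl3, Zfp750, Ovol1, Cebpa, Cebpb and Bhlhe40 encode transcription factors of epidermal differentiation. They were taken by gene symbol from the count tables, where they made up 9 of 27998 genes, and all 9 were detected in keratinocytes of both libraries. Their levels were measured by droplet single-cell RNA sequencing of the centre of healed skin wounds, as unique molecular identifiers (UMIs, each a tag that marks 1 captured mRNA molecule). Male C57BL/6J mice of WT genotype received circular wounds of 1.8 cm on the back, and the wounds were given either PBS (WT_LW) or ODN2395, a synthetic CpG oligonucleotide that activates Toll-like receptor 9 (TLR9agonist_LW), on days 0, 3 and 6. Skin was taken 2 days after the scab came off, and epidermis and dermis were dissociated apart and recombined, after which dead cells were removed. The sources give PBS as the control in the labels and a control oligonucleotide elsewhere, and describe the dosing as spraying, dropping or injection. Cells of several mice were pooled into the single library of each group. There was therefore no replicate, no test between groups was possible, and every interval below covers counting error only. The treatment cannot be told apart from differences among the mice or the cell preparations.

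The filter kept 11443 of 12800 deposited cells of WT_LW and 13206 of 13751 of TLR9agonist_LW, and 47 cell barcodes occurred in both libraries. Keratinocytes were gated from a panel of 16 markers that holds none of the 9 genes, which gave 514 cells of WT_LW (4.49% of the kept cells) and 1284 of TLR9agonist_LW (9.72%). A further 320 and 934 cells scored highest on the keratinocyte panel but were left out. Either that score was too low or the score of another panel came too near it. A differentiation grade was computed for each cell as the share of suprabasal among basal plus suprabasal marker UMIs. Cells at a grade of at most 0.2 were called basal, those at 0.8 or above suprabasal and those between intermediate, and cells rich in Krt79, Cst6 and Defb6 were set apart as upper follicle cells. WT_LW held 153 basal, 126 intermediate, 150 suprabasal and 68 upper follicle cells, and TLR9agonist_LW held 295, 482, 434 and 66. The grade is a range and not a cell type: of the graded cells, 31 of 429 in WT_LW and 108 of 1211 in TLR9agonist_LW lay within 0.05 of the lower limit, and 52 and 124 within 0.05 of the upper limit. Krt5 and Krt10 belong to the panels that set the grade, so their split between subsets was fixed by the gates. Krt5, a keratin of basal cells, stood at 6963 counts per 1000000 UMIs (CPM) in basal and 159 in suprabasal cells of WT_LW. In TLR9agonist_LW it stood at 5101 and 106. Krt10, a keratin of the spinous layer, stood at 85.8 and 21259 CPM in WT_LW, and at 148 and 11952 in TLR9agonist_LW. Krt14, also of the basal panel, did not separate basal from intermediate cells as sharply. It stood at 14015 and 14367 CPM in those of WT_LW and at 13007 and 11981 in those of TLR9agonist_LW. Median depth was 20129 and 21879 UMIs per cell in basal cells, but 9600 in suprabasal cells of WT_LW against 24767 in those of TLR9agonist_LW.

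The epidermis is renewed from a basal layer whose cells stop dividing, detach from the basement membrane and move through spinous and granular layers to form the cornified barrier. p63 sets the epithelial identity of the basal layer, and a set of later factors takes part in cell cycle exit, cell junctions, lipid synthesis and the cornified envelope. In a healing wound the same programme rebuilds the barrier behind a migrating epidermal sheet.

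Gene positions are given on GRCm38 from the annotation joined by Ensembl identifier. Trp63 (ENSMUSG00000022510, chr16:25683763-25892102) encodes p63, required for stratified epithelia. The counts are per gene and do not separate its isoforms. Klf4 (ENSMUSG00000003032, chr4:55527143-55532466) encodes a zinc finger factor required for the skin barrier. Grhl1 (ENSMUSG00000020656, chr12:24572283-24617391) and Grhl3 (ENSMUSG00000037188, chr4:135541888-135573630) encode grainyhead-like factors, of which Grhl1 acts on desmosomal genes and Grhl3 on barrier formation and wound closure. Zfp750 (ENSMUSG00000039238, chr11:121510978-121519333) encodes a zinc finger protein that acts below p63 in terminal differentiation. Ovol1 (ENSMUSG00000024922, chr19:5549136-5560646) encodes a zinc finger repressor that takes part in the exit of progenitors from the cell cycle. Cebpa (ENSMUSG00000034957, chr7:35119293-35121928) and Cebpb (ENSMUSG00000056501, chr2:167688915-167690418) encode C/EBP factors, which act in growth arrest of keratinocytes and also in myeloid cells. Bhlhe40 (ENSMUSG00000030103, chr6:108660629-108666925) encodes a helix-loop-helix repressor tied to the circadian clock and to hypoxia.

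Promoter sequences (250 bases before to 50 after the start, RefSeq, GRCm38.p6) were at hand for 5 of the 9 genes, namely Klf4, Grhl1, Grhl3, Cebpa and Cebpb. All 5 genes stood higher in suprabasal than in basal cells of both libraries. The promoters of Klf4 and Grhl3 are printed as examples, 5′ to 3′ on the minus strand, with motif matches in capitals. In the Klf4 promoter (chr4:55532426-55532725) the capitals mark CACGTG, the E-box letters that BHLHE40 can bind, at -182 from the start. In the Grhl3 promoter (chr4:135573583-135573882) they mark CCACCC, letters that KLF factors can bind, at -118 and -77.
Klf4 promoter: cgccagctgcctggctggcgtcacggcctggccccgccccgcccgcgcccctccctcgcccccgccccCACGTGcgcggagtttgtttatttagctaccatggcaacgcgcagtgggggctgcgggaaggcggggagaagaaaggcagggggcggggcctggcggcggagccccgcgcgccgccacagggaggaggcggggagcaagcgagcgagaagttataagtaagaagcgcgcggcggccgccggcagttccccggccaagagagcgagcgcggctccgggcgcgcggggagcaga
Grhl3 promoter: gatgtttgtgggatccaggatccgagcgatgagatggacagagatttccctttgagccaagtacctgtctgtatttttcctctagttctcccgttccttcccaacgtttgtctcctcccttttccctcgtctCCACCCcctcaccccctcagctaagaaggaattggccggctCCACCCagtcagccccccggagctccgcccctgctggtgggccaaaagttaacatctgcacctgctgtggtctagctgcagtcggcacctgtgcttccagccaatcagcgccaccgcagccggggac
Both strands were searched. CACGTG was found in 1 of the 6 member promoters (2 belong to Grhl1) and in 7.15% of all 32851 promoters, and CCACCC in 4 of the 6 and in 31.5% of all. The letters AACNGGTT (GRHL), TTGCNNAA (C/EBP), TGANTCA (AP-1) and CCGTTA (OVOL) occurred in none of the 6 windows and in 2.09%, 10.8%, 7.81% and 2.76% of all promoters. A match is a description of the letters and not a binding site.

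Of the basal, intermediate and suprabasal subsets, Trp63 and Bhlhe40 were highest in basal cells and the other 7 genes lowest there, in both libraries. In the finer bins (the plot by differentiation grade) this did not hold for Bhlhe40 of WT_LW and Cebpb of TLR9agonist_LW. That Bhlhe40 stood at 296 (253 to 344) at grades of 0.4 to 0.6 and 246 (229 to 263) in the lowest bin. That Cebpb stood at 396 (374 to 419) at 0.2 to 0.4 and 410 (395 to 425) in the lowest bin. Both pairs of intervals overlapped. Trp63 stood at 314 CPM (95% interval 295 to 334) in basal cells of WT_LW, at 166 in intermediate and at 178 in suprabasal cells. The last pair of values did not differ beyond counting error, with intervals of 152 to 181 and 162 to 195. In TLR9agonist_LW, Trp63 stood at 229.6 (218 to 241), 116 (110 to 122) and 85.8 (80.1 to 91.7), so that all 3 subsets lay apart. By bin, Trp63 of WT_LW stood at 128 (112 to 147) at grades of 0.6 to 0.8, below the 178 (162 to 195) of the highest bin. Klf4 ran from 504 (479.7 to 529) through 751 (722 to 782) to 927 (889.96 to 965) in WT_LW, and from 521 (504 to 538) through 802 (787 to 818) to 1230.4 (1209 to 1252) in TLR9agonist_LW. Between these 3 subsets every step of Klf4 exceeded counting error in both libraries. The finer bins of WT_LW did not rise steadily. There Klf4 stood at 801 (746 to 859) at grades of 0.2 to 0.4 and at 648 (583 to 717) at 0.4 to 0.6.

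**Figure D1:**
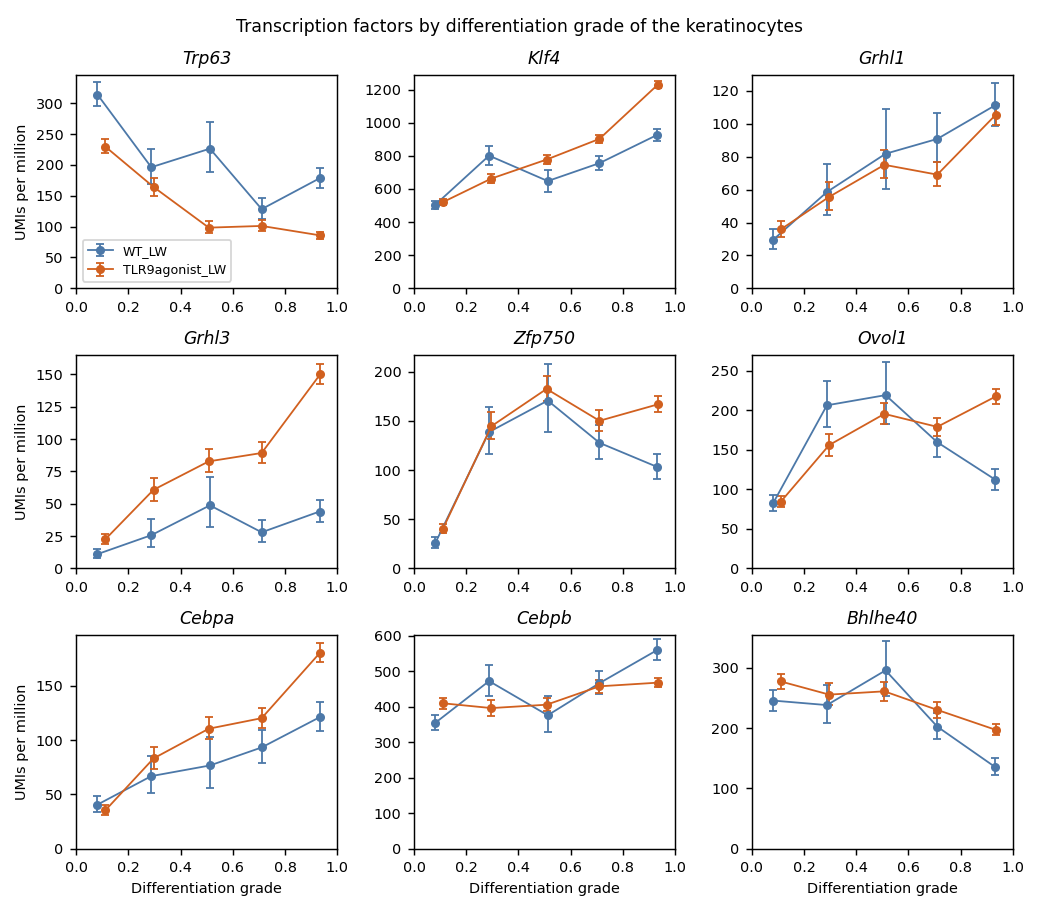
CPM of each transcription factor (y axis, from 0) against the mean differentiation grade of 5 bins of keratinocytes (x axis, share of suprabasal among basal plus suprabasal marker UMIs) in WT_LW and TLR9agonist_LW; bars are exact Poisson 95% intervals. Trp63 stands at 314 and 178 in the lowest and highest bin of WT_LW and at 229.7 and 85.8 in those of TLR9agonist_LW, while Grhl3 reaches 44.0 in WT_LW and 149.9 in TLR9agonist_LW in the highest bin.

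Grhl1 and Grhl3 both stood higher in suprabasal than in basal cells. Grhl1 stood at 29.4 (23.8 to 35.9), 79.6 (70.2 to 89.97) and 111 (98.8 to 125) CPM in basal, intermediate and suprabasal cells of WT_LW, and at 35.8 (31.5 to 40.6), 67.8 (63.3 to 72.5) and 106 (99.2 to 112) in TLR9agonist_LW. The suprabasal and the basal intervals of Grhl1 overlapped between the libraries. Grhl3 stood at 11.03 (7.73 to 15.3), 31.0 (25.2 to 37.7) and 44.0 (36.2 to 52.9) in WT_LW, but at 22.4 (18.98 to 26.3), 80.1 (75.2 to 85.2) and 149.9 (142 to 158) in TLR9agonist_LW. For Grhl3, TLR9agonist_LW was the higher library in every subset. The finer bins of Grhl3 in WT_LW showed no steady rise. They stood at 48.7 (32.4 to 70.5) at grades of 0.4 to 0.6, 27.9 (20.5 to 37.1) at 0.6 to 0.8 and 44.0 above that.

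Zfp750 and Ovol1 had a different shape in the 2 libraries. In WT_LW, Ovol1 stood at 82.5 CPM at grades up to 0.2, at 206 and 219 in the next bins up to 0.6, and at 112 (99.9 to 126) at 0.8 and above. In TLR9agonist_LW it stood at 84.5 in the lowest bin and at 218 (209 to 227) in the highest, its highest value, although the interval just met that of the bin of 0.4 to 0.6 (182 to 209). Zfp750 in WT_LW stood at 171 (139 to 208) in the bin of 0.4 to 0.6, which overlapped the bins on either side, and at 103 (91.1 to 116) in the highest bin. In TLR9agonist_LW, Zfp750 reached 182 (169.7 to 196) in the same middle bin and stood at 167 (159 to 175) in the highest. The middle bins of WT_LW rested on 35 and 29 cells, and those of TLR9agonist_LW on 132 and 150.

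The C/EBP genes and Bhlhe40 differed in direction. Cebpa stood at 40.8 (34.1 to 48.3), 82.1 (72.5 to 92.6) and 121 (108 to 135) CPM from basal to suprabasal cells of WT_LW, and at 35.1 (30.8 to 39.8), 108 (102 to 114) and 181 (172 to 189) in TLR9agonist_LW. Cebpb had a shallow slope, from 355 (335 to 376) to 560.3 (532 to 589.99) in WT_LW and from 409.9 (395 to 425) to 468 (455 to 482) in TLR9agonist_LW, with 452 and 425 in intermediate cells. In TLR9agonist_LW the intermediate level of Cebpb did not differ from the basal one beyond counting error. Bhlhe40 stood at 245 (229 to 263) in basal cells, 230.2 (214 to 247) in intermediate cells and 135 (122 to 150.4) in suprabasal cells of WT_LW, and at 278 (265 to 290.4), 247 (238 to 256) and 197 (189 to 206) in TLR9agonist_LW. Basal and intermediate cells of WT_LW did not differ in Bhlhe40 beyond counting error.

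The step from basal to suprabasal cells within each library was set against all genes with at least 50 UMIs, and a gene was called higher or lower when it stood at least 1.5-fold from the median gene. This comparison needs no difference between libraries, and each library gives its own value. The median gene stood at -0.36 (log2) in WT_LW and -0.44 in TLR9agonist_LW, so that the typical gene took a smaller share of suprabasal UMIs. In WT_LW 7 of the 9 were called higher (all but Trp63 and Bhlhe40) and 0 lower, where 19% of 7736 genes were called higher and 22.8% lower. In TLR9agonist_LW the same 7 were called higher and 1, Trp63, lower, against 20.1% and 23.5% of 9370 genes. The gates hold none of these 9 genes. All 9 had the same sign relative to the median gene in both libraries (the plot of the suprabasal step), although Bhlhe40 in TLR9agonist_LW (-0.06, -0.15 to 0.04) did not differ from it beyond counting error.

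**Figure D2:**
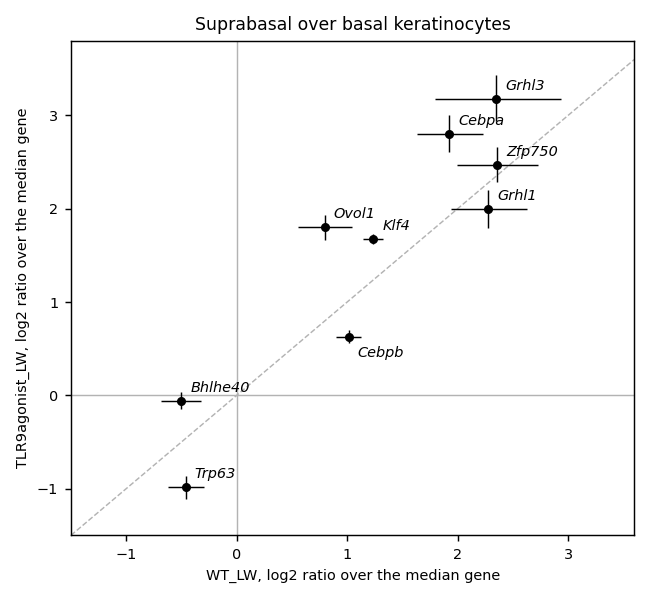
Log2 ratio of suprabasal over basal keratinocytes relative to the median gene in WT_LW (x axis) and TLR9agonist_LW (y axis), with exact 95% counting intervals; the dashed line marks equal values. The 7 genes called higher lie in the upper right, among them Cebpb at 1.01 and 0.63 and Grhl3 at 2.35 and 3.18, while Trp63 (-0.46 and -0.98) and Bhlhe40 (-0.50 and -0.06) lie at the lower left.

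Before centring, the suprabasal over basal ratio of Trp63 was -0.82 (log2, interval -0.98 to -0.66) in WT_LW and -1.42 (-1.54 to -1.30) in TLR9agonist_LW. Zfp750 gave nearly equal ratios, 2.00 and 2.04, and its intervals and those of Grhl1 (1.92 and 1.56) overlapped between the libraries. Relative to the median gene, Ovol1 stood at 0.80 (0.55 to 1.04) in WT_LW and 1.80 (1.67 to 1.94) in TLR9agonist_LW, the widest gap of the 9. Cebpa stood at 1.93 (1.63 to 2.23) and 2.80 (2.61 to 3.00). For Grhl3 the intervals relative to the median gene, 1.80 to 2.93 and 2.94 to 3.43, were only just apart, and those before centring (1.44 to 2.58 and 2.50 to 2.99) overlapped. Cebpb had ratios of 0.66 and 0.19 before centring, and in TLR9agonist_LW it passed the 1.5-fold limit only with centring on the median gene. Because the median log2 ratio moved with the level of the genes, each gene was also set against the 500 genes nearest to it in level. By that scale 7 were called higher and 2 (Trp63 and Bhlhe40) lower in WT_LW, against 19.5% and 21.9% of genes, and 6 higher and 1 lower in TLR9agonist_LW, against 21.5% and 21.4%.

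Across all gated keratinocytes, 6 of the 9 genes stood higher in TLR9agonist_LW relative to the median gene, and Trp63 had the lowest ratio of the 9. The levels in WT_LW and TLR9agonist_LW were 217 and 130.2 CPM for Trp63, 715 and 942 for Klf4, 74.6 and 74.5 for Grhl1, and 28.1 and 92.0 for Grhl3. They were 90.8 and 135 for Zfp750, 119 and 170.4 for Ovol1, and 86.9 and 121 for Cebpa, and 508 and 461 for Cebpb and 194 and 232 for Bhlhe40. The 3.27-fold difference of Grhl3 (log2 1.71, 1.54 to 1.89) was the largest, and Grhl1 was level at 0.00 (-0.12 to 0.12). Relative to the median gene, which stood at -0.49, Klf4, Grhl3, Zfp750, Ovol1, Cebpa and Bhlhe40 were called higher and 0 were called lower, where 15.4% of 11277 genes were called higher and 14.7% lower.

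That count depended on the scale. The median log2 ratio ran from -0.62 for genes at 5 to 20 CPM, through -0.15 at 100 to 300, to 0.18 above 1000, and most of the 9 genes lay above the middle of that range. Against the 500 genes nearest in level, 4 were called higher (Grhl3, Zfp750, Ovol1 and Cebpa) and 1 lower (Trp63), where 14.7% of genes were higher and 11.1% lower. With no centring, only Grhl3 was called higher and only Trp63 lower, where 5.82% of genes were higher and 43.2% lower. Grhl3 was the gene called in the same direction by all 3 scales. Cebpb and Grhl1 lay above the median gene (0.35 and 0.49) but at -0.14 and 0.00 without centring, so no direction is given for them.

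**Figure D3:**
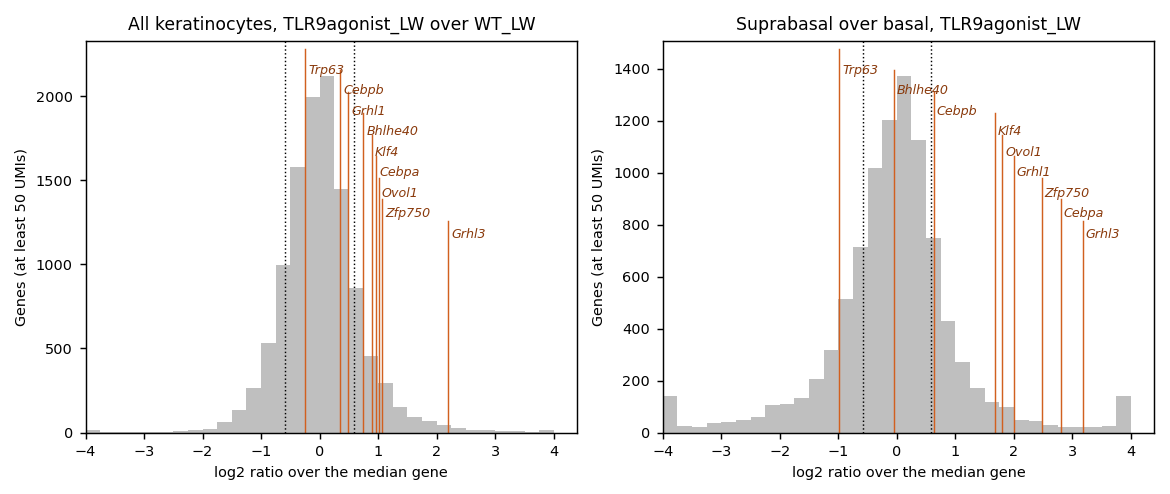
Number of genes with at least 50 UMIs (y axis, grey bars) by log2 ratio relative to the median gene (x axis; the outermost bars hold genes beyond 4) for all keratinocytes of TLR9agonist_LW over WT_LW and for suprabasal over basal cells of TLR9agonist_LW. Orange lines mark the 9 genes and dotted lines the 1.5-fold limits; Trp63 lies at -0.24 and Grhl3 at 2.20 in the first comparison, and at -0.98 and 3.18 in the second.

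The subsets took different shares of the 2 libraries, so the comparison was repeated within each (the plot of ratios by subset). In basal cells, 2 of the 9, Grhl3 and Zfp750, were called higher and 0 lower, where 13.1% of 8946 genes were higher and 12.8% lower. Grhl3 stood at 11.03 and 22.4 CPM in WT_LW and TLR9agonist_LW (log2 1.02, 0.49 to 1.59), and Zfp750 at 25.7 and 40.7 (0.66, 0.30 to 1.03). Klf4 (0.05, -0.04 to 0.13) and Ovol1 (0.03, -0.18 to 0.24) had nearly equal basal levels. Trp63 had 1.37-fold fewer CPM in basal cells of TLR9agonist_LW (-0.45, -0.57 to -0.34), which was -0.17 from the median gene at -0.28. Without cycling cells the basal Zfp750 levels were 34.1 and 43.0 (0.33, -0.11 to 0.79), a ratio that counting error did not separate from 0. In those cells, Grhl1, Grhl3 and Zfp750 were called higher and Trp63 lower against the 500 genes nearest in level. With no centring only Grhl3 was called higher and only Trp63 lower, with Trp63 at 349 and 229 CPM. The share of all genes called was not computed for these cells.

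**Figure D4:**
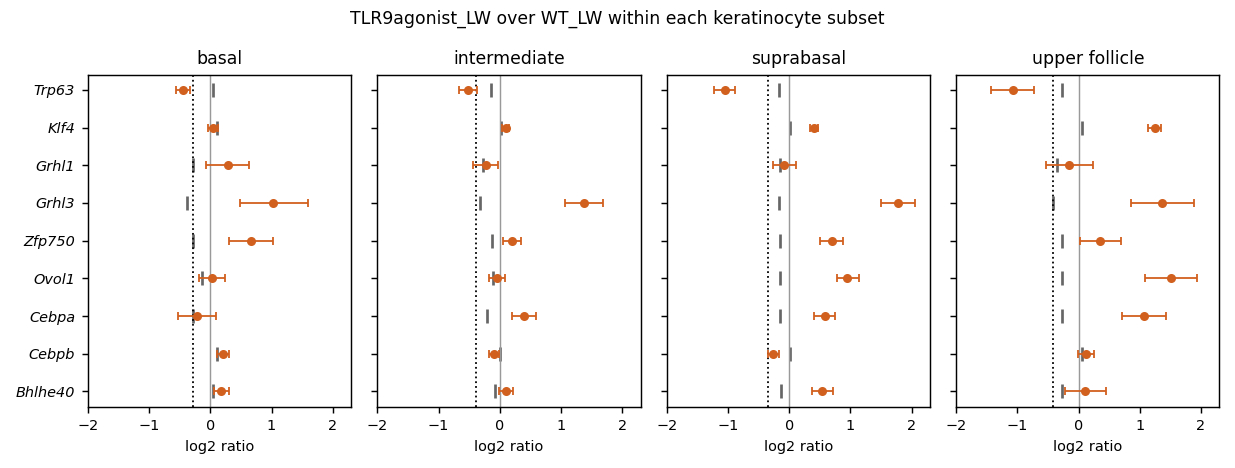
Log2 ratio of TLR9agonist_LW over WT_LW (x axis, not centred) for the 9 genes within basal, intermediate, suprabasal and upper follicle cells; bars are exact 95% counting intervals, the dotted line is the median gene and grey ticks the median of the 500 genes nearest in level. Grhl3 lies above 1 in every panel (1.02, 1.37, 1.77 and 1.36) and Trp63 below 0 in every panel (-0.45, -0.52, -1.06 and -1.08).

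In intermediate cells Grhl3 again had the largest ratio (1.37, 1.07 to 1.68), followed by Cebpa (0.39, 0.20 to 0.59) and Zfp750 (0.20, 0.05 to 0.35). Ovol1 (-0.04, -0.17 to 0.09) and Bhlhe40 (0.10, -0.02 to 0.22) did not differ there beyond counting error before centring.

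In suprabasal cells 6 of the 9 were called higher and 1 lower relative to the median gene at -0.34, where 18.9% of 8190 genes were higher and 15.6% lower. Grhl3 stood at 3.41-fold (1.77, 1.49 to 2.06), Ovol1 at 1.94-fold (0.95, 0.77 to 1.13) and Zfp750 at 1.62-fold (0.69, 0.51 to 0.89) the level of WT_LW. Cebpa (0.58, 0.40 to 0.76), Bhlhe40 (0.54, 0.38 to 0.71) and Klf4 (0.41, 0.35 to 0.47) followed. Trp63 was 2.08-fold lower in TLR9agonist_LW (-1.06, -1.22 to -0.89). Grhl1 (-0.08, -0.27 to 0.12) did not differ beyond counting error, and Cebpb stood at -0.26. Against genes of like level 5 were called higher (all of the 6 but Klf4) and 1 lower, where 18.5% and 13.7% of genes were. With no centring 3 (Grhl3, Zfp750 and Ovol1) were called higher and Trp63 lower, where 10.4% and 33.5% of genes were. With equal weight per cell, Trp63 was at -0.33 from the median gene and was not called. The stress genes described with the upper follicle summed to 6420 and 8413 in suprabasal cells, and their part in these ratios was not tested.

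The suprabasal cells of the 2 libraries were not of the same make. Loricrin (Lor) and filaggrin (Flg), both granular layer proteins, stood at 676 and 1129 CPM in WT_LW but at 2.11 and 31.0 in TLR9agonist_LW. Lce3c, of the late cornified envelope, stood at 2.33 and 109.9, and Sprr2f, of the small proline-rich proteins, at 38.5 and 1722. Clustering that left out the 9 genes placed 86 of the 150 suprabasal cells of WT_LW in a cluster led by Mt4 and Calm5 and 34 in one led by Lor and Flg. Of the 434 of TLR9agonist_LW, 135 lay in a cluster led by 2610528A11Rik, Rnase1 and Cxcl9 whose summed markers gave an intermediate grade, 100 in one led by Slc6a14, Slc5a1 and F3, and 95 in one led by Lce3f, Crct1 and Lce3c. A further 30 of TLR9agonist_LW and 0 of WT_LW lay in a cluster led by the T cell genes Il17f, Il17a and Icos, and Il17a stood at 102.6 CPM in suprabasal cells of TLR9agonist_LW against 2.33 in WT_LW. The 9 T and NK cell markers summed to 55.3 and 63.6 CPM in suprabasal cells of WT_LW and TLR9agonist_LW, with 0 of them undetected. Without that cluster Il17a stood at 17.4 and the 9 markers at 19.98 in TLR9agonist_LW, and 6 of the 9 factors were still called higher and 1 lower relative to the median gene. With no centring 4 were then called higher in suprabasal cells, Cebpa being added to Grhl3, Zfp750 and Ovol1, and against genes of like level Trp63 was no longer called lower in all keratinocytes (log2 -0.58). A cluster led by Cd74 and H2-Aa, macrophage and dendritic cell markers, held 10 suprabasal cells of WT_LW and 3 of TLR9agonist_LW. That cluster was not left out by itself, and its part in the ratios was not tested. Cells without a UMI of Lor or Flg (95 in WT_LW and 384 in TLR9agonist_LW) gave nearly the same ratios. In them Trp63 stood at 192 and 91.9 CPM, Grhl3 at 40.1 and 149.1, Ovol1 at 110.4 and 227, and Zfp750 at 108 and 176, and again 6 of the 9 were called higher and 1 lower. The share of all genes called was computed neither for these cells nor for those without the cluster led by Il17f.

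The cluster led by Slc6a14 stood apart. It held 3 cells of WT_LW and 142 of TLR9agonist_LW, with 7.75% mitochondrial and 15.7% ribosomal protein UMIs and a median of 7339 UMIs per cell. In its 100 suprabasal cells of TLR9agonist_LW all 9 genes stood above the other 334, among them Klf4 at 1967 against 1157 CPM, Ovol1 at 512 against 188, Zfp750 at 389 against 145, Bhlhe40 at 420.1 against 175 and Trp63 at 208 against 73.6. Without that cluster the number of genes called relative to the median gene was the same in the comparisons of all keratinocytes (6 higher, 0 lower), suprabasal cells (6 and 1) and the suprabasal step (7 and 0, 7 and 1). With no centring, 2 were then called higher in suprabasal cells (Grhl3 and Ovol1), since Zfp750 stood at 1.40-fold in place of 1.62-fold, and against genes of like level 4 were, without Bhlhe40. Grhl3 then stood at 139.9, Cebpa at 169.4 and Cebpb at 459 in suprabasal cells of TLR9agonist_LW. The part of RNA quality in the levels of the cluster was not tested. For the cells without the cluster, the share of all genes called was not computed.

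Upper follicle cells, which line the opening of the hair follicle, had the highest Klf4 of any class in both libraries, 985 CPM (922 to 1051) in 68 cells of WT_LW and 2329.6 (2248 to 2413) in 66 cells of TLR9agonist_LW. In WT_LW that value did not differ from the suprabasal one beyond counting error. Ovol1 stood at 63.9 (48.7 to 82.5) and 181 (159 to 206) in upper follicle cells, Cebpa at 97.5 (78.4 to 119.9) and 204 (180.2 to 229), and Grhl3 at 45.5 (32.8 to 61.5) and 117 (98.9 to 136). Trp63 stood at 184 (158 to 214) and 87.2 (72.1 to 105). Grhl1, Zfp750, Cebpb and Bhlhe40 had overlapping intervals there. A panel of 18 stress genes that respond to tissue dissociation summed to 7913 and 13305 CPM in these cells, and to 9035 and 10265 in all keratinocytes, and its part in the values was not tested. Gland cells with lipid synthesis markers numbered 17 and 7, and are given as levels only: Cebpa stood at 234 and 315 CPM, Cebpb at 1059 and 1265, and Bhlhe40 at 31.9 and 49.2.

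Cells with cycling markers made up 35.9% of basal cells in WT_LW and 38.6% in TLR9agonist_LW, and 0 of the suprabasal cells in both. The comparison was made within basal cells, 55 cycling and 98 other cells in WT_LW and 114 and 181 in TLR9agonist_LW. Trp63 stood at 274 CPM in cycling and 349 in other basal cells of WT_LW (log2 -0.35, -0.53 to -0.17), but at 230.5 and 229 in TLR9agonist_LW (0.01, -0.13 to 0.16). Zfp750 stood at 16.3 and 34.1 in WT_LW (-1.06, -1.80 to -0.37), on 25 and 59 UMIs, and at 38.2 and 43.0 in TLR9agonist_LW (-0.17, -0.53 to 0.18). Ovol1 was level in WT_LW (82.9 and 82.6) and stood at 68.6 and 98.98 in TLR9agonist_LW (-0.53, -0.78 to -0.28). Cebpa did not differ beyond counting error in either library (0.33, -0.18 to 0.84, and 0.03, -0.35 to 0.40). Without cycling cells, Grhl3 in basal cells stood at 9.82 and 27.1 CPM in WT_LW and TLR9agonist_LW.

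Outside the epidermis the 9 genes fell into a restricted and a broad set (the plot by cell class). Gated keratinocytes, with 10.8% and 23.6% of all UMIs, held 80.2% and 80.8% of the UMIs of Trp63, 70.1% and 77.4% of Grhl1, 80.5% and 78.5% of Grhl3, 78.2% and 79.7% of Zfp750, and 78.7% and 78.3% of Ovol1. They held 19.7% and 47.4% of Klf4, 31.3% and 61.9% of Cebpa, 10.7% and 15.6% of Cebpb, and 6.46% and 19.8% of Bhlhe40. The remaining UMIs include those of the 320 and 934 cells that scored highest on the keratinocyte panel but were left out. For the restricted 5 the low values elsewhere lay near the level of free RNA. The 16 keratinocyte panel genes stood in the 9 other classes at a median of 1.19% of their keratinocyte level in WT_LW and 3.95% in TLR9agonist_LW, with class values of 0.882% to 2.87% and of 2.96% to 10.9%. The restricted 5 stood at medians of 1.27% to 2.07% and of 2.79% to 4.33%, inside or below those ranges, and values inside them are read as background. Grhl1 in T and NK cells lay beyond its panel's share: it stood at 4.61% of its keratinocyte level in WT_LW (55 UMIs) where the panel stood at 1.44%, and at 7.25% against 5.83% in TLR9agonist_LW (63 UMIs). The WT_LW value is above every class value of the panel in that library and is not read as background. Some of the 5 also lay higher in neutrophils and mast cells, on at most 12 UMIs. In WT_LW, Grhl1 in Schwann cells (2.99%) also passed the top class value of the panel. So did Grhl3, Zfp750 and Ovol1 in lymphatic endothelial cells (6.92%, 4.29% and 3.28%), at 1.95, 3.89 and 3.89 CPM.

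**Figure D5:**
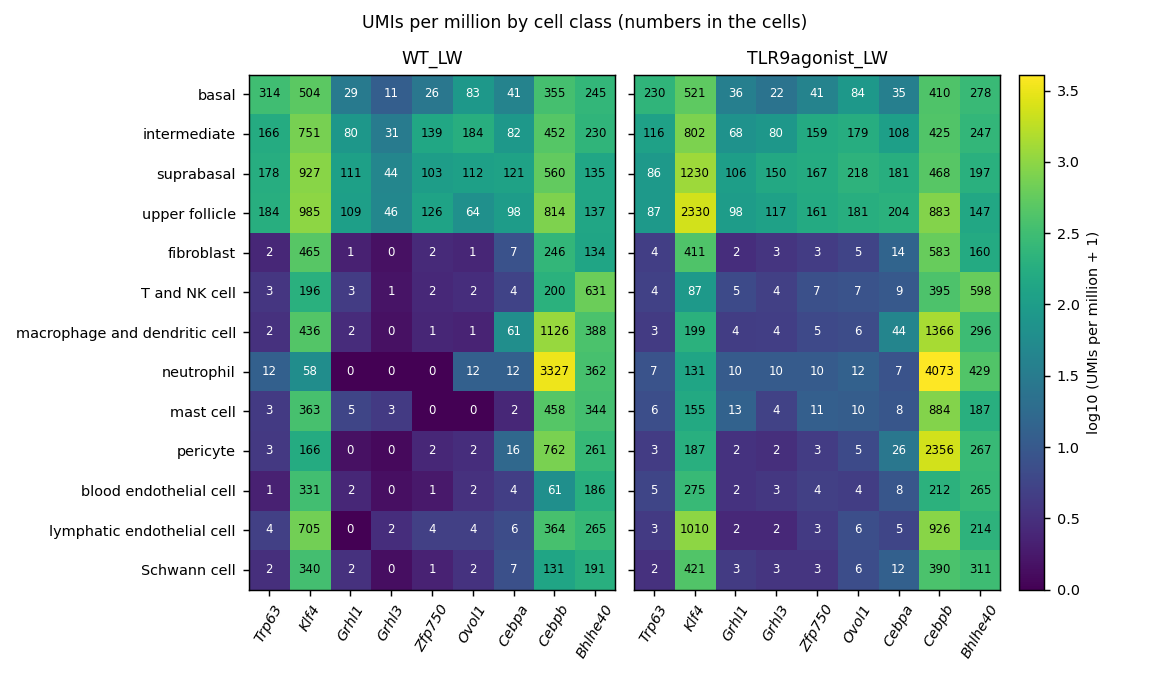
CPM (numbers and colour, log10 of the value plus 1) of the 9 genes in 4 keratinocyte subsets and 9 other cell classes of WT_LW (left) and TLR9agonist_LW (right). Trp63, Grhl1, Grhl3, Zfp750 and Ovol1 stay at or under 12.5 outside the keratinocyte subsets, Cebpb is highest in neutrophils (3327 and 4073), and Bhlhe40 in T and NK cells (631 and 598).

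Cebpb, which in myeloid cells drives the emergency production of granulocytes, was highest in neutrophils, at 3327 CPM (2952 to 3736) in 30 cells of WT_LW and 4073 (3879 to 4274) in 156 of TLR9agonist_LW. It stood higher in TLR9agonist_LW in all 9 other classes, with log2 ratios from 0.28 in macrophages and dendritic cells to 1.79 in blood endothelial cells (61.3 and 212). In pericytes it stood at 762 (737 to 788) and 2356 (2301 to 2412), in fibroblasts at 246 and 583, and in T and NK cells at 200.2 and 395. In all keratinocytes it stood at -0.14. Among the 18 stress genes the median of the log2 ratios was 0.31 in pericytes, 0.54 in fibroblasts and 0.61 in blood endothelial cells, but -0.47 in T and NK cells and -0.31 in macrophages and dendritic cells, and their part in these values was not tested.

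Klf4 stood at 705 (634 to 781) and 1010 (933 to 1092) CPM in lymphatic endothelial cells, the highest class outside the epidermis. It stood at 465 and 411 in fibroblasts. It was lower in TLR9agonist_LW in T and NK cells (196 and 87.1), in macrophages and dendritic cells (436 and 199) and in mast cells (363 and 155). Bhlhe40, which restrains interleukin-10 in T cells, was highest in T and NK cells, at 631 (619 to 644) and 598 (584 to 613), above every keratinocyte subset. Cebpa outside the epidermis was highest in macrophages and dendritic cells, at 60.7 (57.4 to 64.1) and 43.8 (40.3 to 47.5).

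The share of cells with a UMI was computed after every cell was thinned to 1500 UMIs, leaving out as shallower 2 and 1 basal, 11 and 4 suprabasal, and 28 and 6 T and NK cells of WT_LW and TLR9agonist_LW. Grhl3 was found in 10.1% of suprabasal cells of WT_LW (exact Clopper-Pearson 95% interval 5.62 to 16.3) and 22.8% of TLR9agonist_LW (18.9 to 27.1), and in 39.3% and 78.1% before thinning. Ovol1 was found in 14.4% (9.02 to 21.3) and 31.2% (26.8 to 35.8) of suprabasal cells. Trp63 was found in 40.4% (32.5 to 48.7) and 26.2% (21.3 to 31.6) of basal cells. Klf4 was found in 64.0% (55.5 to 71.99) and 78.1% (73.9 to 81.96) of suprabasal cells. In T and NK cells, which should lack Trp63, Grhl3 and Ovol1, the thinned shares were 0.643% and 0.591% for Trp63, 0.135% and 0.690% for Grhl3, and 0.271% and 1.08% for Ovol1, at median depths of 4401 and 4924 UMIs per cell.

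Among close relatives of the 9, Grhl2 was the member of its family that went against Grhl3. Grhl2, a grainyhead-like factor of epithelial junctions, stood at 29.6 and 10.6 CPM in all keratinocytes of WT_LW and TLR9agonist_LW (log2 -1.48, -1.71 to -1.25). Of the 10 relatives in the tables, Klf5, Klf6 and Cebpg (169 and 225, 421 and 608, and 65.8 and 75.6) were called higher relative to the median gene. Trp73, Grhl2, Ovol2 and Bhlhe41 were called lower, at 4.11 and 1.59, 29.6 and 10.6, 2.68 and 1.13, and 7.17 and 2.01. Trp53 (55.4 and 46.0), Klf2 (26.0 and 18.7) and Klf3 (190.2 and 201) were not called. Klf5, Klf6 and Cebpg were called neither with no centring nor against genes of like level, and Ovol2 was not called against genes of like level. Trp73, Ovol2 and Bhlhe41 rested on 28 to 75 UMIs in a library.

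Of 20 other epidermal transcription factors with at least 50 UMIs, 9 were called higher and 4 lower in all keratinocytes, with a median of 0.41 relative to the median gene, and the 9 genes described here had a median of 0.89. Over all genes 15.4% were called higher and 14.7% lower. Against genes of like level the counts were 8 and 6 (14.7% and 11.1% of all genes), and with no centring 7 and 7 (5.82% and 43.2%). Prdm1, which encodes the repressor Blimp1, had the highest ratio (20.6 and 167 CPM, log2 3.02). Barx2, a homeobox gene, had the lowest (126 and 46.8, log2 -1.44). Ehf, a factor of barrier formation, stood at 105 and 298 and was chosen after its values were seen.

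Genes that these factors are known to act on or beside were counted by list, and lists and genes were chosen with earlier results of these data known. The counts between libraries stand beside 15.4% of all genes called higher and 14.7% lower, and those of the suprabasal step beside 19% and 22.8% in WT_LW and 20.1% and 23.5% in TLR9agonist_LW, so counts such as 2 of 9 are near the share of all genes. With no centring, where 5.82% of all genes were called higher and 43.2% lower, the list genes called between libraries were 4 higher and 4 lower for the envelope, 0 and 7 for adhesion, 1 and 5 for Notch, 0 and 8 for the clock, and 5 and 5 for stress. Against genes of like level they were 7 and 4, 0 and 2, 2 and 3, 2 and 6, and 5 and 3 in the same order. Of 16 genes of the cornified envelope and its enzymes, 7 were called higher and 2 lower in TLR9agonist_LW, from Lce3c (4.78 and 41.3 CPM) to Klk5, a kallikrein protease (33.5 and 6.73). In the suprabasal step 12 of the 16 in WT_LW and 15 in TLR9agonist_LW reached 50 UMIs and were called higher, but a gene near 0 in basal cells reaches that number only through suprabasal cells. Of 10 adhesion genes tied to p63, 1 was called higher and 2 lower in TLR9agonist_LW, from Igfbp3 (167 and 201) to Fras1 (12.6 and 1.68). In the suprabasal step, 7 of 10 in WT_LW and 5 of 9 in TLR9agonist_LW were called lower, and 2 in each were called higher. That list shares Itga3, Itgb4 and Perp with the gates. Of 9 Notch pathway genes, 2 were called higher and 2 lower, from Rbpj, the nuclear effector (32.0 and 50.7), to Nrarp, a target gene (68.0 and 25.4). Of 10 clock genes paired with Bhlhe40, 2 were called higher and 6 lower, from Arntl (14.5 and 18.5) to Tef (8.99 and 1.65). Of the 18 dissociation stress genes, 8 were called higher and 2 lower, from Hspa1a (256 and 846) to Fosb (426 and 162).

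For each of the 9, the genes most alike in pattern (1 for Trp63) were taken over 26 points, the 13 classes and subsets of both libraries, by Pearson's r of log2 values with 10 CPM added, from 8379 genes. The points share libraries, depth and free RNA, so r is a description. Trp63 was most like Car12 (0.99), Grhl1 most like Evpl and Capns2 (both 0.98), and Grhl3 most like Crb3 (0.98) and Fabp6 (0.97). Zfp750 was most like Rab25 and Grhl1 (both 0.98), Ovol1 most like Tfap2c and Dsc3 (both 0.98), and Cebpa most like Spint1 (0.92) and Lsr (0.91). The broad genes had weaker matches: Klf4 with Bicd2 (0.87) and Cd3eap (0.83), Bhlhe40 with Vps37b (0.84) and Hmgb2 (0.83), and Cebpb with Slc25a33 (0.83) and Mxd1 (0.75).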

How the data were processed

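The 2 libraries, WT_LW and TLR9agonist_LW, were made with 10x Genomics 3′ chemistry. The authors deposited UMI counts per gene and cell, whole numbers without normalization, made with Cell Ranger (4.0.0 per the matrix headers). The processing notes also name fastp, Seurat and mm9, whereas 98.74% of the 27998 gene identifiers matched the GRCm38 annotation used for gene positions.

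Cells with at least 500 UMIs, 300 genes and at most 15% mitochondrial UMIs were kept (median 5520 and 6310.5 UMIs). Each cell went to the marker panel with the highest score of 11, if that score was at least 0.25 and the next panel stayed under 0.4 of it for keratinocytes or 0.6 for other classes. Other cells were left out, which removes part of the doublets between classes, and no doublet caller was run. UMIs were summed per class and library and given per 1000000 (CPM). Exact Poisson 95% intervals were set on levels, exact binomial ones on ratios (from the summed count of both sides) and Clopper-Pearson ones on shares, and a count of 0 allows up to 3 counts. These cover counting error only: cells are not replicates, and 1 library per group allows no test.

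Named genes are the 9 transcription factors, their relatives with at least 50 UMIs, the highest and lowest gene of each list and the 2 genes most alike to each factor; others are named where a result rests on them. The genes and lists were chosen with earlier results of these data known. Alternatives covered the cell filter, gates, weights, scaling, grade limits, cycling cells and Leiden clusters. The scripts were tested on simulated data. Clustering used scanpy 1.11.5 and igraph 0.11.9, intervals scipy 1.17.1, and tables and plots pandas 2.3.3, numpy 2.4.6 and matplotlib 3.10.9 under Python 3.11.15. Cebpd was not analysed here. Some genes that the naming rule or a list would have named are not reported here.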

Additional observations from a re-analysis of the deposited data

Results flagged for a closer look

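Klf4 stood higher in keratinocytes of TLR9agonist_LW (log2 ratio 0.89 over the median gene) but lower in 3 other classes, which is why it is listed here. Relative to the median gene it stood at -0.91 in T and NK cells, -0.86 in macrophages and dendritic cells, and -1.25 in mast cells. These values rested on 3134 and 1015 UMIs of WT_LW and TLR9agonist_LW in T and NK cells, 9309 and 2677 in macrophages and dendritic cells, and 234 and 148 in mast cells. Bhlhe40 stood at 0.74 in keratinocytes and at -0.90 in mast cells, on 222 and 179 UMIs. With no centring the keratinocyte values were 0.40 for Klf4 and 0.25 for Bhlhe40. With 1 library per group the difference between classes was not tested.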

How the results depend on the processing

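No paired analysis was possible because each group has 1 library and no result comes from a test. The settings for suprabasal cells of TLR9agonist_LW against WT_LW, centring on the 500 genes nearest in level, and leaving out follicle and gland cells, Lor or Flg cells, wound-panel bins or the clusters led by Slc6a14 or Il17f were chosen after seeing the data. In all keratinocytes, no centring took the genes called higher from 6 to 1 and those called lower from 0 to 1, and centring on genes of like level gave 1 lower. In suprabasal cells, no centring took the genes called higher from 6 to 3, and equal weight per cell took those called lower from 1 to 0; the cause was not tested. In the suprabasal step of WT_LW, the 0 genes called lower became 1 with equal weight per cell, 2 with no centring, 2 with genes of like level, 2 without cycling cells and 1 with grade limits of 0.1 and 0.9. The other counts of called genes stayed within 1.5 times of the values given. Shares of all genes called were computed for the full cell sets only, not for reduced sets of cells or equal weight per cell. Nor were they computed for the suprabasal step with no centring or for a floor of 10 UMIs. The counts of called genes under those settings therefore have no share to stand beside. Of the values of single genes under the alternatives, 105 of 108 in all keratinocytes, 121 of 126 in suprabasal cells, and 116 of 117 (WT_LW) and 115 of 117 (TLR9agonist_LW) in the suprabasal step kept their sign. In the same order, 9, 11, 11 and 8 of these values moved to the other side of the 1.5-fold limit. Depth limited Grhl3 most, with 36 UMIs in basal cells of WT_LW.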

Other observations

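Krt6a, Krt6b, Krt16, S100a8 and S100a9, which mark wound-activated epidermis, took a median of 1.27% of the UMIs of suprabasal cells in WT_LW and 2.26% in TLR9agonist_LW. Within the suprabasal cells of TLR9agonist_LW, 190 cells with under 2% of UMIs on these genes held 202 CPM of Zfp750 (188 to 217), 1418.5 of Klf4 (1381.5 to 1456) and 125 of Grhl1 (114 to 137). The 20 cells with 6% to 8% held 89.1 of Zfp750 (66.5 to 117), 908 of Klf4 (832 to 988) and 70.2 of Grhl1 (50.4 to 95.3). Ovol1 (243 and 158), Cebpa (207 and 142), Cebpb (549 and 341) and Bhlhe40 (210 and 151) were also lower in the second of these bins. Median depth was 21352 and 33842 UMIs per cell in the 2 bins, and its part was not tested. Grhl3 differed less along the same bins, at 151 (139 to 163) and 128 (101 to 161), with overlapping intervals. Trp63 stood at 92.6 (83.3 to 103) and 83.9 (62.1 to 111), also overlapping. In WT_LW only the bins under 2% and of 2% to 4% held at least 20 cells (101 and 31), with Zfp750 at 95.5 (81.8 to 111) and 134 (105 to 168) and Trp63 at 206 (186 to 228) and 103 (77.7 to 133). Cells with under 2% on these genes gave 6 of the 9 called higher and 1 lower between the libraries, and those with 2% to 4% gave 4 and 1. In all suprabasal cells 18.9% of genes were called higher and 15.6% lower, and the share within these bins was not computed. This split was chosen after the data were seen.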
